A study of Mus musculus with 39 samples.

Results

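The 33 genes described here are genes of tuft cells, listed by name, and the list was chosen with earlier results of these data known. All 33 were found among the 34574 named entries of each of 3 expression tables of the mouse gut. RNA was sequenced from the colon, the ileum and a sample labelled duodenum/jejunum of 13 mice of 2 inbred strains, 6 of BALB/cJ and 7 of C57BL/6J. Each mouse gave 1 library per tissue, so that 39 libraries fall into 6 groups of 6 or 7. The labels give no treatment, genotype beyond the strain, age, sex or batch. Bulk tissue was used, so fewer tuft cells and less RNA of a gene per tuft cell cannot be told apart.

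Tuft cells are rare chemosensory cells of the gut epithelium that depend on the transcription factor POU2F3. They sense luminal compounds through G protein-coupled receptors, a taste-type signal chain and the cation channel TRPM5, and they release interleukin 25, eicosanoids and acetylcholine. In the small intestine, interleukin 25 from tuft cells starts a type 2 immune circuit against worms and protists. Many of their genes are also read in blood cells, nerves or endocrine cells. The 33 genes were therefore split into 10 that few other gut cells express (Avil, Trpm5, Sh2d6, Pou2f3, Il25, Gnat3, Gng13, Tas1r3, Hmx2 and Hmx3), 17 that blood or vessel cells also express, and 6 that nerve, endocrine or stromal cells also express.

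Levels are in TPM, a transcript abundance scaled for transcript length and to a common total per library, and every mean is given ± SD over 6 BALB/cJ or 7 C57BL/6J libraries. Strain differences are BALB/cJ minus C57BL/6J on the log2(TPM + 1) scale, which understates the change of genes near 1 TPM, with their standard error (SE). They come from limma, a linear model fitted to all genes, with Benjamini-Hochberg adjusted p-values, and a gene was called at an adjusted p under 0.05. Genes entered the test with at least 1 TPM in at least 6 libraries, which 25 of the 33 members passed for the colon, 22 for the ileum and 23 for the duodenum/jejunum, and 22 passed in every tissue.

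All 39 libraries matched their strain label by the class II gene H2-Ea-ps, which is nearly silent in C57BL/6J. C57BL/6J mouse 2 stood apart by its region markers. Fabp6, the ileal bile acid binding gene, was at 22.1 TPM in its labelled ileum and at 6111 TPM in its labelled duodenum/jejunum, beside 4884 to 11140 TPM in the BALB/cJ ileum and at most 96.0 TPM in the BALB/cJ duodenum/jejunum. Tmprss15, the duodenal enteropeptidase, was at 51.2 TPM in its library labelled ileum, where BALB/cJ libraries held at most 0.699 TPM, and at 39.2 TPM in that labelled duodenum/jejunum, within the BALB/cJ range of 25.5 to 68.8 TPM. Both markers thus went against the ileum label, while 1 went against the duodenum/jejunum label and 1 with it. Without this mouse, all 7 members called in the ileum and all 8 in the duodenum/jejunum were called again, and values without it are given where a call changed. In BALB/cJ the B cell list was higher in the colon (9 of 9 genes called higher, summed level 54.7 to 83.9 TPM against 17.1 to 30.8 TPM), as were 7 of 9 tested T cell genes and 8 of 10 macrophage and dendritic cell genes, while all 8 genes of proliferating cells (summed level 222 to 322 TPM against 332 to 483 TPM) and 4 of 10 epithelial genes fell there. The part of these cells in the colon results was not tested. In the ileum 4 of 9 B cell genes and 7 of 10 macrophage and dendritic cell genes were higher in BALB/cJ, with the summed B cell level highest in BALB/cJ mouse 2 (274 TPM). The summed pancreatic acinar genes ranged from 5.42 to 5464 TPM among duodenum/jejunum libraries and reached 893 TPM in the colon library of BALB/cJ mouse 3.

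Of the 33 genes, 6 (Avil, Trpm5, Dclk1, Sh2d6, Rgs13 and Siglecf) were lower in BALB/cJ in all 3 tissues. How many of all genes were lower in all 3 tissues is not given here. They can be no more than the genes lower in the ileum, 492 of 15537 tested. In total 9 colon members fell in BALB/cJ and 2 rose, 6 were lower in the ileum and 1 higher, and 8 were lower in the duodenum/jejunum and 0 higher (of all tested members, 14, 15 and 15 were not called). Of all genes tested, 10.8% were lower and 14.5% higher in the BALB/cJ colon, 3.17% lower and 17.2% higher in the ileum, and 4.8% lower and 4.7% higher in the duodenum/jejunum. The median difference of the tested members was -0.16 for the colon, -0.16 for the ileum and -0.39 for the duodenum/jejunum, beside 0.02, 0.17 and 0.01 over all genes tested. In the ileum the median over all genes was -0.0029 when libraries were rescaled by median-of-ratios factors, and the split of called members then read 8 lower and 0 higher, with 877 genes lower and 915 higher among all genes. Leaving out C57BL/6J mouse 2 gave 6 lower and 1 higher in the ileum, beside 3.89% and 19.6% of all genes, and 10 lower and 0 higher in the duodenum/jejunum, beside 4.72% and 4.26%. Of the called members, Ffar3 (colon), Sh2d6 and Siglecf (ileum) reached 1 TPM in no BALB/cJ library, so that they entered the test through the C57BL/6J libraries alone, and these 3 calls, though counted here, are no support for the counts.

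**Figure D1:**
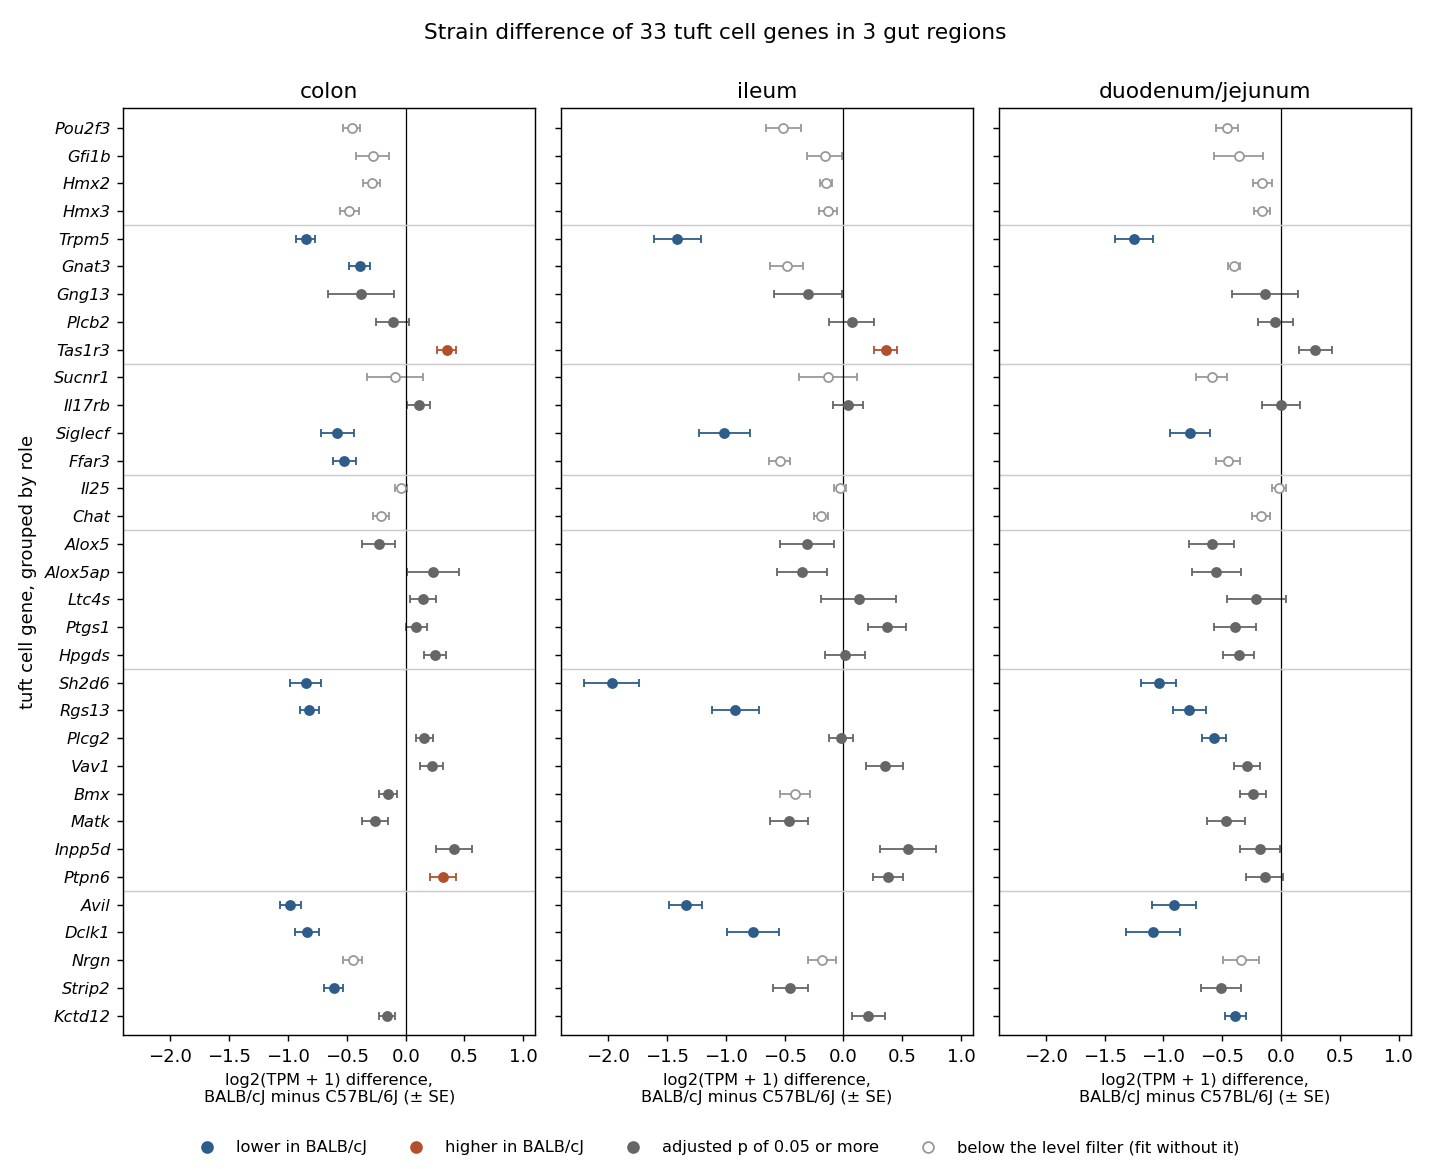
Difference between the strains on the log2(TPM + 1) scale (x axis, BALB/cJ minus C57BL/6J, bars are SE) for each of the 33 tuft cell genes (y axis, grouped by role) in the 3 tissues, n = 6 and 7. Filled blue points are called lower in BALB/cJ (9, 6 and 8 genes) and filled red points higher (2, 1 and 0 genes), and open points are genes below the level filter, taken from the fit without it.

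Avil, which encodes the actin-bundling protein advillin, had values of 3.35, 4.61 and 4.97 TPM (lowest, median and highest) in the BALB/cJ colon and of 8.36, 9.96 and 10.96 TPM in the C57BL/6J colon. The BALB/cJ colon libraries all lay below the C57BL/6J ones, at a mean of 4.46 ± 0.579 against 9.77 ± 0.985 TPM (2.19-fold lower, difference -0.98 ± 0.09 SE, limma adjusted p = 9.8e-07). In the ileum it ran from 1.51 over 1.86 to 2.09 TPM in BALB/cJ and from 4.24 over 6.70 to 8.17 TPM in C57BL/6J, again without overlap (3.43-fold lower, -1.34 ± 0.14 SE, limma adjusted p = 1.5e-05). The duodenum/jejunum groups overlapped, with 1.95, 3.53 and 6.04 TPM in BALB/cJ and 5.60, 7.28 and 9.40 TPM in C57BL/6J. The means there were 3.76 ± 1.44 and 7.71 ± 1.58 TPM (2.05-fold, -0.91 ± 0.19 SE, limma adjusted p = 0.0051).

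Trpm5, the calcium-gated cation channel that ends the taste-type signal chain, did not overlap between the strains in any tissue. Its colon values were 3.73, 4.09 and 5.36 TPM in BALB/cJ and 7.18, 8.72 and 9.07 TPM in C57BL/6J (1.97-fold lower, -0.85 ± 0.08 SE, limma adjusted p = 3.7e-06). In the ileum BALB/cJ held 1.399, 2.13 and 3.21 TPM and C57BL/6J 5.33, 7.24 and 14.5 TPM (3.48-fold, -1.41 ± 0.20 SE, limma adjusted p = 0.00023). The highest of these, 14.5 TPM, is the library labelled ileum of C57BL/6J mouse 2, and without that mouse the ileal difference was -1.26 ± 0.15 SE (limma adjusted p = 4.5e-05). Duodenum/jejunum libraries held 1.57, 3.04 and 3.67 TPM in BALB/cJ and 5.97, 8.35 and 9.14 TPM in C57BL/6J (2.82-fold, -1.25 ± 0.16 SE, limma adjusted p = 6.6e-05).

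Sh2d6, a gene for a protein with an SH2 domain, showed the largest fold among the 6 in the ileum. BALB/cJ ileum libraries held 0.132, 0.377 and 0.778 TPM and C57BL/6J ones 2.58, 4.29 and 9.67 TPM, a ratio of means of 12.02-fold (-1.97 ± 0.23 SE, limma adjusted p = 2.9e-05, and 0.00012 in the fit without the level filter). Without C57BL/6J mouse 2, which held the 9.67 TPM, the difference was -1.81 ± 0.18 SE (limma adjusted p = 6.7e-06). In the colon the values were 3.34, 4.08 and 6.39 TPM in BALB/cJ and 6.23, 8.74 and 10.6 TPM in C57BL/6J, so that BALB/cJ mouse 1 overlapped with C57BL/6J mouse 1 (1.97-fold, -0.85 ± 0.13 SE, limma adjusted p = 0.00022). In the duodenum/jejunum 1.61, 2.68 and 3.72 TPM stood against 5.30, 6.35 and 8.17 TPM without overlap (2.41-fold, -1.04 ± 0.15 SE, limma adjusted p = 0.0002).

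Dclk1, a microtubule-associated kinase gene used as a tuft cell marker and also read in nerves, had the highest level of the 6. Colon libraries held 10.6, 12.4 and 15.9 TPM in BALB/cJ and 19.95, 23.3 and 27.6 TPM in C57BL/6J without overlap (1.84-fold lower, -0.84 ± 0.10 SE, limma adjusted p = 1.4e-05). The strains overlapped in the ileum, at 2.99, 3.44 and 6.82 TPM against 5.03, 7.33 and 11.2 TPM (1.85-fold, -0.77 ± 0.22 SE, limma adjusted p = 0.024, and -0.70 ± 0.21 SE with limma adjusted p = 0.033 without C57BL/6J mouse 2, which held the 11.2 TPM). That call ended in 4 of the 13 fits that left out 1 library, those without BALB/cJ mouse 1, 4, 5 or 6 (limma adjusted p up to 0.056). They also overlapped in the duodenum/jejunum, at 2.56, 3.62 and 7.50 TPM against 6.23, 10.45 and 17.5 TPM (2.37-fold, -1.09 ± 0.23 SE, limma adjusted p = 0.0057). Among markers of enteric neurons and glia, 3 of 10 were lower in the BALB/cJ colon (summed level 29.7 to 42.1 TPM against 33.5 to 64.6 TPM), 0 of 7 tested were called in the ileum and 1 of 7 was lower in the duodenum/jejunum. Their part in the Dclk1 difference was not tested.

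Rgs13, a regulator of G protein signalling, was lower in BALB/cJ without overlap in every tissue. It held 3.17, 3.59 and 4.27 TPM in the BALB/cJ colon and 6.63, 7.13 and 8.53 TPM in the C57BL/6J colon (1.97-fold, -0.82 ± 0.08 SE, limma adjusted p = 1.5e-06). Ileum values were 0.833, 1.53 and 1.93 TPM against 2.29, 3.43 and 7.84 TPM (2.61-fold, -0.92 ± 0.20 SE, limma adjusted p = 0.0054). Duodenum/jejunum values were 1.67, 2.94 and 3.36 TPM against 4.27, 5.39 and 6.60 TPM (1.96-fold, -0.78 ± 0.14 SE, limma adjusted p = 0.0018).

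Siglecf, a sialic acid-binding receptor of tuft cells and eosinophils, had the lowest mean of the 6 in every group but the BALB/cJ ileum. Its colon values overlapped, at 0.95, 1.38 and 1.90 TPM in BALB/cJ and 1.54, 2.71 and 3.40 TPM in C57BL/6J (1.85-fold lower, -0.58 ± 0.14 SE, limma adjusted p = 0.008). Ileum values did not overlap, at 0.272, 0.529 and 0.698 TPM against 1.26, 1.42 and 5.18 TPM (4.38-fold, -1.01 ± 0.22 SE, limma adjusted p = 0.006, and 0.011 in the fit without the level filter). The 5.18 TPM belong to C57BL/6J mouse 2, and without it the difference was -0.84 ± 0.15 SE (limma adjusted p = 0.0018). In the duodenum/jejunum BALB/cJ mouse 2, at 3.47 TPM, lay among the C57BL/6J libraries of 2.88 to 4.29 TPM (2.03-fold, -0.77 ± 0.17 SE, limma adjusted p = 0.0096). Among eosinophil markers, Ear1 was listed at 0 in every library and Epx had group means of 0.198 TPM or less, while the summed list of 8 genes lay between 2.16 and 9.03 TPM, a range that reaches above that of Siglecf. One eosinophil gene, Prg2, was lower in BALB/cJ ileum (0.191 ± 0.207 against 1.16 ± 0.327 TPM) and BALB/cJ duodenum/jejunum (0.182 ± 0.112 against 2.71 ± 1.03 TPM, limma adjusted p = 1.5e-05), and its part in the Siglecf difference was not tested. Prg2 reached at most 0.563 and 0.306 TPM in these BALB/cJ libraries, so that it entered the test through the C57BL/6J libraries alone. Below the level filter, Epx had the higher ileal mean in BALB/cJ (0.198 ± 0.0877 against 0.0382 ± 0.0484 TPM). Ccr3, another eosinophil gene, did too (0.349 ± 0.168 against 0.102 ± 0.0536 TPM). The summed list held 3.93 ± 0.663 against 3.33 ± 1.02 TPM in the colon. Ileum sums were 4.29 ± 1.15 against 4.10 ± 0.314 TPM. Duodenum/jejunum sums were 4.29 ± 0.921 against 6.84 ± 1.89 TPM. The part of these genes in the Siglecf difference was not tested.

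**Figure D2:**
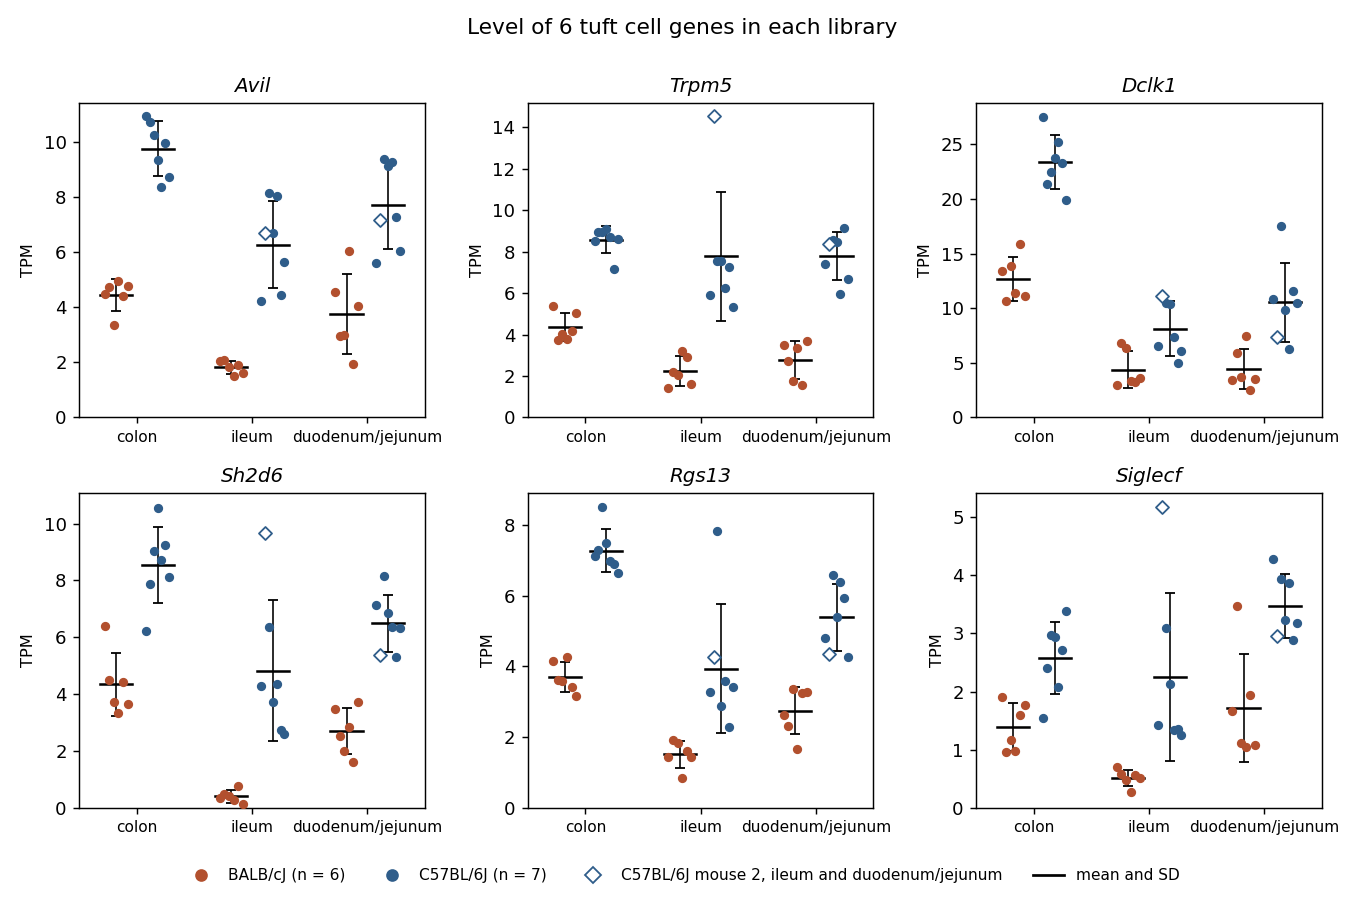
TPM (y axis, from 0) of the 6 genes called in all 3 tissues in each library, by tissue and strain (6 BALB/cJ and 7 C57BL/6J mice), with the mean and SD, and with C57BL/6J mouse 2 of the ileum and duodenum/jejunum as open diamonds. Trpm5 and Rgs13 do not overlap between the strains in any tissue, while Sh2d6 falls to between 0.132 and 0.778 TPM in the BALB/cJ ileum.

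The bases before the start sites of these genes, which were each lower in BALB/cJ in all 3 tissues, are shown, with matches to the binding letters of the POU factor family, to which POU2F3 belongs. Of the 33 members 30 had an entry in the RefSeq promoter table (build GRCm38.p6), in 34 windows of 250 bases. The full POU octamer ATGCAAAT was searched on both strands, and it stood in the windows of 3 members (Hpgds, Sucnr1 and Kctd12) and in 1.6% of all 32851 windows. Its first 7 letters ATGCAAA, which every octamer match also holds, stood in those of 5 members (Avil, Ffar3 and the former 3) and in 4.12% of all windows. The 250 bases before the listed start of 5 of the 6 genes follow, since Dclk1 has more than 1 listed start. Each runs 5′ to 3′ on the gene's strand, with the 7 letters or their reverse complement in capitals. For Sh2d6 the listed start lies inside the gene as GENCODE places it (72513641 to 72521707). The bases before the outer end of Sh2d6 were not searched. The windows are chr10:127000459-127000708 (+ strand) for Avil, chr7:143094643-143094892 (- strand) for Trpm5, chr6:72520037-72520286 (- strand) for Sh2d6, chr1:144177373-144177622 (- strand) for Rgs13 and chr7:43351091-43351340 (+ strand) for Siglecf.
Avil: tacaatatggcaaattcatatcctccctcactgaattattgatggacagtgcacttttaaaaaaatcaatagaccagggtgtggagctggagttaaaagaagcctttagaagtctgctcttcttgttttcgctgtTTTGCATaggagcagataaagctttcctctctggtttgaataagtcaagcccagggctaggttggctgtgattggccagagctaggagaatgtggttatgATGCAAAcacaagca
Trpm5: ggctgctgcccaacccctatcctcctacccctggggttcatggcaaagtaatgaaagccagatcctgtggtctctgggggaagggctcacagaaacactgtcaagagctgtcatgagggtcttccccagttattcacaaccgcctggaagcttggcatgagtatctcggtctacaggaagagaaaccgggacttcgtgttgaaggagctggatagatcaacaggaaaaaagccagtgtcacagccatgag
Sh2d6: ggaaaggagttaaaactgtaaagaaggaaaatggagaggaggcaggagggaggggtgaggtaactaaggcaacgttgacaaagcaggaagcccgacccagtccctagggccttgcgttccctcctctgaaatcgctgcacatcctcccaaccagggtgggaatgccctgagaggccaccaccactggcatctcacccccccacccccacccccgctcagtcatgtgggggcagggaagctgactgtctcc
Rgs13: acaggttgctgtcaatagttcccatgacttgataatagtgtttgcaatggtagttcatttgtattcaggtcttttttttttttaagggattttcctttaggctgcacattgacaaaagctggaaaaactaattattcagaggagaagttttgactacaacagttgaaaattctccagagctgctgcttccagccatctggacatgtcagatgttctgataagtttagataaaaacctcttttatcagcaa
Siglecf: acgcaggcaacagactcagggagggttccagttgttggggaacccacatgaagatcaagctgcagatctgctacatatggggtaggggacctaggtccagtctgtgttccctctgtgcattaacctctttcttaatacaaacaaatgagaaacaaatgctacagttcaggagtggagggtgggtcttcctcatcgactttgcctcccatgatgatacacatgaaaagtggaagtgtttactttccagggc
Avil held the 7 letters at 2 places, which begin 115 and 15 bases before the start, and the other 4 windows held none. A match describes letters and not a bound site.

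The transcription factors of tuft cells were too low for the filtered test in every tissue and are given from the fit without the filter, in which 6.69% of genes were called lower in the BALB/cJ colon, 1.89% for the ileum and 2.83% for the duodenum/jejunum. Pou2f3, the factor that tuft cells depend on, held 0.451, 0.542 and 0.703 TPM in the BALB/cJ colon and 0.873, 1.19 and 1.54 TPM in the C57BL/6J colon, with no overlap (2.04-fold lower, limma adjusted p = 0.00076). In the duodenum/jejunum it held 0.215, 0.425 and 0.608 TPM against 0.663, 0.853 and 1.29 TPM, also without overlap (2.34-fold, limma adjusted p = 0.007). The ileum groups overlapped at 0.105, 0.156 and 0.466 TPM against 0.358, 0.496 and 1.71 TPM, and the difference was not called (limma adjusted p = 0.052), except without C57BL/6J mouse 2 (-0.40 ± 0.11 SE, limma adjusted p = 0.042). Without that mouse 8 of the 9 members called in the unfiltered ileum fit were called again, with Dclk1 lost (limma adjusted p = 0.068), as were all 12 in the duodenum/jejunum. The homeobox genes Hmx2 and Hmx3 fell in the BALB/cJ colon (0.333 ± 0.157 against 0.624 ± 0.091 TPM and 0.214 ± 0.113 against 0.695 ± 0.199 TPM, limma adjusted p = 0.0097 and 0.0013). Neither was called in the small intestine, where group means were 0.104 to 0.324 TPM. Gfi1b, a zinc finger repressor also of blood cell precursors, had group means of 0.133 to 0.546 TPM and was not called.

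Every BALB/cJ library lay below every C57BL/6J library for 10 colon members, 6 ileum members and 9 duodenum/jejunum members, beside 3.35%, 0.966% and 1.63% of all genes read above 0. No member had every BALB/cJ library above every C57BL/6J library (0 in each tissue), beside 4.51%, 5.28% and 2.02% of all genes. Over all 33 members the BALB/cJ mean was the lower for 22 (colon), 24 (ileum) and 32 (duodenum/jejunum), beside 48.0%, 37% and 47.7% of all genes read above 0.

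The taste-type signal chain did not move as 1 group. Apart from Trpm5, Gnat3, the α-gustducin subunit of the taste G protein, was lower in the BALB/cJ colon at 1.38, 1.74 and 1.92 TPM against 2.10, 2.37 and 3.22 TPM (1.504-fold, -0.39 ± 0.09 SE, limma adjusted p = 0.0059). In the small intestine Gnat3 was nearly unread in BALB/cJ. Its ileum value was listed at 0 in 4 of 6 BALB/cJ libraries and reached 0.146 TPM, while the C57BL/6J libraries ran from 0.0419 over 0.36 to 1.00 TPM (fit without the filter, limma adjusted p = 0.041). Duodenum/jejunum values were 0.0413, 0.0827 and 0.191 TPM against 0.318, 0.460 and 0.597 TPM, without overlap (limma adjusted p = 0.0002 without the filter).

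Tas1r3, the shared subunit of the sweet and umami receptors, went the other way. It was higher in the BALB/cJ colon, at 2.92, 3.71 and 4.27 TPM against 2.34, 2.62 and 3.07 TPM (1.39-fold, 0.35 ± 0.08 SE, limma adjusted p = 0.0054). It was also higher in the ileum, at 3.62, 4.49 and 5.04 TPM against 2.63, 3.13 and 3.77 TPM (1.37-fold, 0.36 ± 0.10 SE, limma adjusted p = 0.026). The strains overlapped in both tissues, and the ileum call ended with median-of-ratios scaling (0.21 ± 0.08 SE, limma adjusted p = 0.13) and without BALB/cJ mouse 5 or 6 or C57BL/6J mouse 1 or 6 (limma adjusted p up to 0.06). In the duodenum/jejunum it was not called (3.76 ± 0.782 against 2.92 ± 0.696 TPM, limma adjusted p = 0.27). Plcb2, the phospholipase of the chain, and Gng13, its G protein γ subunit, were called in no tissue. Plcb2 had BALB/cJ and C57BL/6J means of 3.26 and 3.56 TPM (colon), 6.81 and 6.17 TPM (ileum) and 6.48 and 6.74 TPM (duodenum/jejunum). Gng13 varied widely within groups, from 0 to 3.42 TPM over all libraries.

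Among the receptors other than Siglecf, Ffar3, a receptor for short-chain fatty acids, was lower in the BALB/cJ colon, at 0.463, 0.616 and 0.795 TPM against 0.985, 1.399 and 1.80 TPM (2.14-fold, -0.52 ± 0.10 SE, limma adjusted p = 0.0015, and 0.0011 in the fit without the level filter). Below the level filter in the small intestine, it was lower there in the fit without it (ileum 0.295 ± 0.0895 against 0.898 ± 0.274 TPM, limma adjusted p = 0.0027, and duodenum/jejunum 0.428 ± 0.152 against 0.957 ± 0.278 TPM, limma adjusted p = 0.012). Its values did not overlap between the strains in any tissue. Enteroendocrine cells also express Ffar3, and their 10 markers included 2 that were higher in the BALB/cJ colon, 1 for the ileum and 0 for the duodenum/jejunum, with 0 lower in each. The part of these cells in the Ffar3 difference was not tested. Sucnr1, the succinate receptor, was lower in the BALB/cJ duodenum/jejunum (0.178 ± 0.116 against 0.798 ± 0.378 TPM, limma adjusted p = 0.018 without the filter), where the strains did not overlap. In the colon single libraries decided its mean (0.0411 to 2.05 TPM in BALB/cJ), and it was not called there or in the ileum. Il17rb, a subunit of the interleukin 25 receptor, had means of 2.53 to 3.34 TPM in the 6 groups and was called in no tissue (limma adjusted p of 0.5, 0.86 and 0.99).

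The secreted signals were near the floor of the tables. Il25, the tuft cell cytokine, had group means of 0.0521 to 0.0888 TPM, was listed at 0 in 2 or 3 libraries of every group, and was not called. Chat, which makes acetylcholine and is also read in enteric neurons, had means of 0.382 ± 0.139 against 0.598 ± 0.114 TPM for the colon, 0.154 ± 0.0986 against 0.313 ± 0.0952 TPM for the ileum and 0.138 ± 0.101 against 0.284 ± 0.162 TPM for the duodenum/jejunum. None of these differences was called (limma adjusted p of 0.052, 0.063 and 0.33 without the filter).

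**Figure D3:**
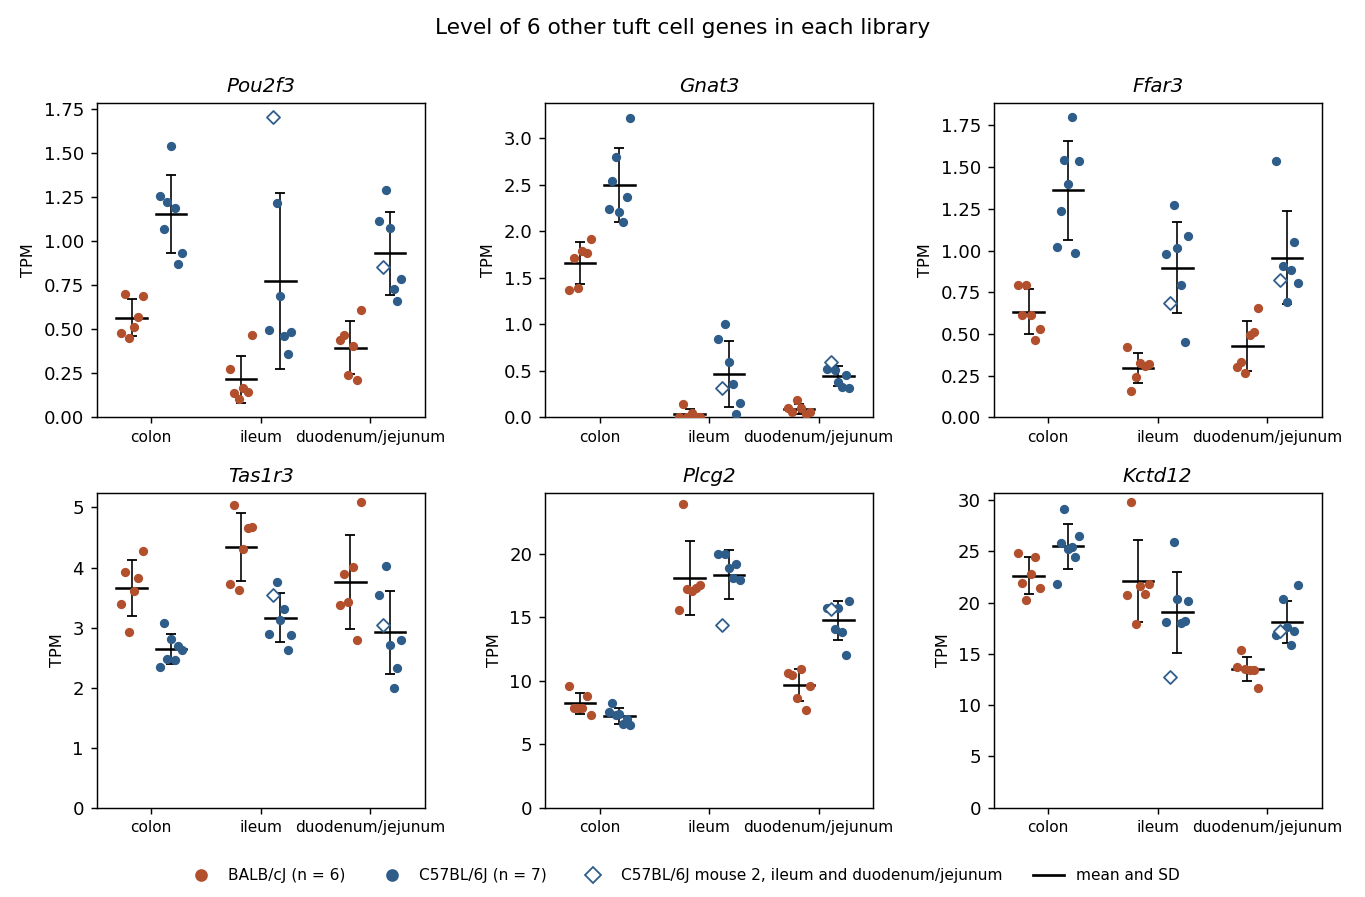
TPM (y axis, from 0) of Pou2f3, Gnat3, Ffar3, Tas1r3, Plcg2 and Kctd12 in each library, by tissue and strain (6 BALB/cJ and 7 C57BL/6J mice), with the mean and SD, and with C57BL/6J mouse 2 of the ileum and duodenum/jejunum as open diamonds. Gnat3 lies between 1.38 and 3.22 TPM in the colon and at 1.00 TPM or less in the small intestine, and Plcg2 separates the strains in the duodenum/jejunum only among the tissues shown.

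The 5 eicosanoid enzymes did not pass the test in any tissue, among them Alox5 and its partner Alox5ap, which start leukotriene synthesis, Ltc4s, which makes leukotriene C4, and the prostaglandin enzymes Ptgs1 and Hpgds. The BALB/cJ mean was the lower for 1 of the 5 (colon), 3 (ileum) and 5 (duodenum/jejunum). Ptgs1 was the most abundant, at 36.3 ± 4.97 against 33.98 ± 3.78 TPM for the colon, 30.6 ± 8.67 against 23.3 ± 4.71 TPM for the ileum and 20.3 ± 6.12 against 26.1 ± 4.06 TPM for the duodenum/jejunum. Hpgds in the colon came close to the threshold in the opposite direction (10.7 ± 1.08 against 8.83 ± 1.20 TPM, 0.25 ± 0.09 SE, limma adjusted p = 0.055) and passed it without BALB/cJ mouse 3 (limma adjusted p = 0.035), C57BL/6J mouse 2 (limma adjusted p = 0.025) or C57BL/6J mouse 6. Alox5 in the duodenum/jejunum stood at 1.97 ± 0.681 against 3.48 ± 1.18 TPM (-0.59 ± 0.19 SE, limma adjusted p = 0.068). It passed without C57BL/6J mouse 2 (limma adjusted p = 0.043) or BALB/cJ mouse 6 (limma adjusted p = 0.046), and Alox5ap there passed without BALB/cJ mouse 2 (limma adjusted p = 0.03).

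Of the 8 members that are signalling proteins, most of them shared with blood cells, 2 fell and 1 rose in the BALB/cJ colon, 2 fell in the ileum and 3 fell in the duodenum/jejunum, with Sh2d6 and Rgs13 in each of these counts. Among all genes tested, 10.8% were lower and 14.5% higher in the colon, and 3.17% and 4.8% were lower in the ileum and duodenum/jejunum. Sh2d6 entered the ileum test through the C57BL/6J libraries alone. Ptpn6, the phosphatase SHP-1 of blood cells, was higher in the BALB/cJ colon (29.6 ± 3.59 against 23.7 ± 3.97 TPM, 0.32 ± 0.11 SE, limma adjusted p = 0.045). That call ended in 9 of the 13 fits without 1 library (limma adjusted p up to 0.1). The B cell list was higher in the same libraries, and its part in the Ptpn6 difference was not tested. Inpp5d, the lipid phosphatase SHIP-1, was 14.4 ± 3.47 against 10.4 ± 1.73 TPM in the colon and 27.6 ± 9.26 against 18.8 ± 6.65 TPM in the ileum and was not called, except in the colon without BALB/cJ mouse 6 (limma adjusted p = 0.0054) or C57BL/6J mouse 2 (limma adjusted p = 0.043). Plcg2, a phospholipase of B cell and tuft cell signalling, was lower in the BALB/cJ duodenum/jejunum, at 7.66, 10.02 and 10.9 TPM against 12, 15.7 and 16.3 TPM without overlap (1.53-fold, -0.57 ± 0.10 SE, limma adjusted p = 0.0017). Its colon values (8.21 ± 0.841 against 7.22 ± 0.612 TPM) and ileum values (18.1 ± 2.93 against 18.4 ± 1.93 TPM) did not pass the test. B cell genes did not pass in the duodenum/jejunum (0 of 9, summed level 38.9 to 71.5 against 36.6 to 86.5 TPM), and their part in the Plcg2 difference was not tested. Vav1, Bmx and Matk, an exchange factor and 2 tyrosine kinases, were called in no tissue, with Matk at limma adjusted p of 0.099, 0.054 and 0.091 and a lower BALB/cJ mean each time (4.05, 3.37 and 3.61 against 5.04, 5.05 and 5.47 TPM). Matk passed in the ileum without BALB/cJ mouse 2 or C57BL/6J mouse 7 (limma adjusted p = 0.023 and 0.033) and in the duodenum/jejunum without C57BL/6J mouse 2 (limma adjusted p = 0.039). Ptpn6 passed in the ileum without BALB/cJ mouse 1 or C57BL/6J mouse 3 (limma adjusted p = 0.048 and 0.02).

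Strip2, a gene of striatin-interacting protein complexes, was lower in the BALB/cJ colon, at 3.69, 4.32 and 5.34 TPM against 6.49, 6.91 and 7.85 TPM without overlap (1.64-fold, -0.61 ± 0.08 SE, limma adjusted p = 5.5e-05). It fell short of the threshold in the ileum (2.44 ± 0.682 against 3.69 ± 0.891 TPM, limma adjusted p = 0.051) and in the duodenum/jejunum (2.55 ± 0.935 against 3.96 ± 0.735 TPM, limma adjusted p = 0.071), and passed in both after median-of-ratios scaling (limma adjusted p = 0.01 and 0.024). It also passed in the ileum without BALB/cJ mouse 2 (limma adjusted p = 0.03) and in the duodenum/jejunum without BALB/cJ mouse 6 (limma adjusted p = 0.023). Kctd12, an auxiliary subunit gene of GABA-B receptors, was lower in the BALB/cJ duodenum/jejunum, at 11.6, 13.5 and 15.4 TPM against 15.9, 17.3 and 21.7 TPM (1.34-fold, -0.39 ± 0.09 SE, limma adjusted p = 0.013). In the colon it passed only without C57BL/6J mouse 1 (limma adjusted p = 0.032). Nrgn, the calmodulin-binding neurogranin, was lower in the BALB/cJ colon in the fit without the filter (0.50 ± 0.106 against 1.06 ± 0.258 TPM, limma adjusted p = 0.0023).

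By the cells that also express them, the 10 genes that few other gut cells express gave 4 lower and 1 higher of 6 tested in the colon, 3 and 1 of 5 in the ileum, and 3 and 0 of 5 in the duodenum/jejunum. The 17 also read in blood or vessel cells gave 2 lower and 1 higher of 15, 2 and 0 of 14, and 3 and 0 of 15. The 6 also read in nerve, endocrine or stromal cells gave 3 lower of 4, 1 of 3 and 2 of 3. Beside these, 10.8% of all genes tested were lower and 14.5% higher in the colon, and 3.17% and 17.2% in the ileum. The shares were 4.8% and 4.7% for the duodenum/jejunum. The counts include Sh2d6 and Siglecf (ileum) and Ffar3 (colon), which entered the test through the C57BL/6J libraries alone. These 3 calls are no support for the counts. Adding a per-library epithelium score to the colon fit left 5 members lower and 0 higher (Avil, Trpm5, Dclk1, Rgs13 and Strip2), with 1124 genes called in all. Adding a B cell score, which separates the strains in the colon, left 1, Avil (-1.60 ± 0.24 SE, limma adjusted p = 0.0018), with 300 genes called in all. With this score the differences of Trpm5 (-0.75 ± 0.29 SE), Sh2d6 (-0.85 ± 0.44 SE), Rgs13 (-0.91 ± 0.25 SE) and Strip2 (-0.61 ± 0.27 SE) stayed near those without it while their standard errors grew, and those of Dclk1 (-0.49 ± 0.31 SE), Tas1r3 (0.12 ± 0.27 SE) and Ffar3 (-0.05 ± 0.31 SE) shrank. In the ileum the epithelium score gave 7 lower and 2 higher (3539 of all genes called), and the B cell score left 4 lower (1772 of all genes). In the duodenum/jejunum each score left 8 lower (epithelium 1214 and B cell 1428 of all genes). With only the 5 duodenum/jejunum libraries under 100 TPM of summed pancreatic genes and without C57BL/6J mouse 2 (3 BALB/cJ and 2 C57BL/6J), 1 member, Sh2d6, was called (-1.40 ± 0.24 SE, limma adjusted p = 0.037), and Trpm5 stood at -1.37 ± 0.27 SE. The other 6 called members kept their direction with differences about as large as over all libraries or larger, from -0.38 ± 0.18 SE for Kctd12 to -1.32 ± 0.40 SE for Dclk1, and larger standard errors.

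The 3 tissues were compared in 1 fit of all 39 libraries, averaged over the strains, in which 28 members were tested. For 18 of the 33 members in C57BL/6J and 21 in BALB/cJ, the colon had the highest mean of the 3 tissues. Against the ileum, 16 of 28 members were higher in the colon and 7 lower, while 46.5% of all genes tested were higher and 19.1% lower. Against the duodenum/jejunum, 13 were higher in the colon and 4 lower, beside 55.4% and 17.5% of all genes. In the ileum against the duodenum/jejunum 5 were higher and 6 lower, beside 32.1% and 9.81%. Neither count of members higher in the colon stood far from the share of all genes.

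The scaling between tissues bears on these counts. The median over all genes was 0.17 for colon minus ileum and 0.28 for colon minus duodenum/jejunum, and -0.0039 and -0.008 after median-of-ratios scaling. With that scaling 13 members were higher in the colon than in the ileum and 7 lower, beside 31.6% and 30.8% of all genes. Against the duodenum/jejunum 7 were higher in the colon and 11 lower, beside 34% and 34.1%, and 4 were higher and 9 lower in the ileum against the duodenum/jejunum, beside 17.4% and 17.5%. Among members called under either scaling, Avil (0.28 and -0.01), Matk (0.03 and -0.25) and Ptpn6 (0.12 and -0.21) changed sign for colon minus duodenum/jejunum.

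Gnat3 differed between the tissues, with 1.66 ± 0.227 and 2.498 ± 0.396 TPM in the colon (BALB/cJ, then C57BL/6J) and at most 0.472 TPM as a group mean elsewhere. It was higher in the colon than in the ileum by 1.32 ± 0.07 SE and than in the duodenum/jejunum by 1.28 ± 0.07 SE (limma adjusted p = 5.8e-18 and 1.2e-17), and in each strain alone. Dclk1 was also higher in the colon, by 1.42 ± 0.14 SE and 1.26 ± 0.14 SE (limma adjusted p = 3.2e-11 and 4.5e-10). Enteric neuron and glia markers also had their highest sums in the colon (29.7 to 64.6 TPM over both strains, against 8.85 to 31.8 TPM in the small intestine), and their part was not tested. Strip2 and the eicosanoid genes Hpgds and Alox5 were higher in the colon against both other tissues, Hpgds by 0.79 ± 0.10 SE and 0.75 ± 0.10 SE (limma adjusted p = 3.6e-09 and 8e-09).

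Other members had their lowest level in the colon. Plcg2 was lower there than in the ileum by -1.14 ± 0.06 SE and than in the duodenum/jejunum by -0.57 ± 0.06 SE (limma adjusted p = 2.9e-18 and 3.5e-10). Plcb2 was lower by -0.74 ± 0.12 SE and -0.79 ± 0.12 SE (limma adjusted p = 9.5e-07 and 2.3e-07). Ltc4s was highest in the duodenum/jejunum, at 10.3 ± 2.93 and 12.4 ± 4.06 TPM against 5.16 to 5.86 TPM as group means in the colon and ileum. In C57BL/6J mouse 2 the pattern of Ltc4s was crossed, with 16.4 TPM in the library labelled ileum and 4.32 TPM in that labelled duodenum/jejunum. Averaged over the strains, Avil, Sh2d6, Rgs13, Siglecf, Bmx and Ltc4s were lower in the ileum than in the duodenum/jejunum, Sh2d6 by -0.92 ± 0.13 SE (limma adjusted p = 3.9e-07). Sh2d6 means were 0.401 against 2.69 TPM in BALB/cJ and 4.82 against 6.50 TPM in C57BL/6J. Within C57BL/6J alone, 3 members were called lower and 1 higher in this contrast (992 and 948 of all genes). Within BALB/cJ alone, 6 were lower and 6 higher (1306 and 6074 of all genes). Leaving out C57BL/6J mouse 2 kept the split of 16 higher and 7 lower for colon against ileum (45.5% and 19.5% of all genes) and of 13 higher and 4 lower for colon against duodenum/jejunum (54.7% and 18% of all genes), and gave 5 higher and 8 lower for ileum against duodenum/jejunum, beside 35% and 11.9% of all genes.

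**Figure D4:**
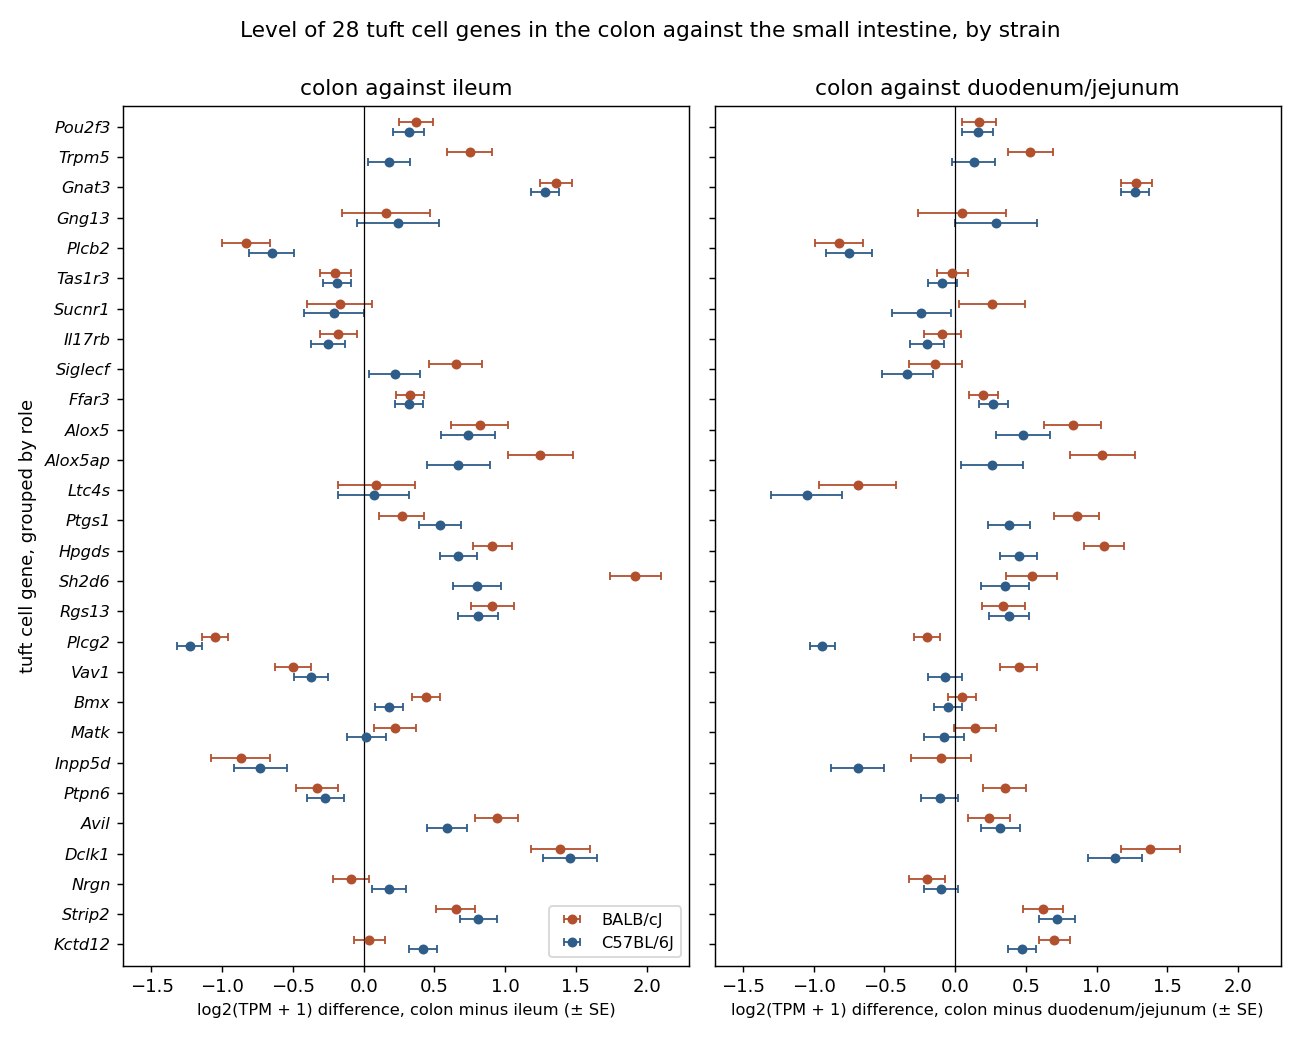
Difference in level on the log2(TPM + 1) scale (x axis, colon minus ileum on the left, colon minus duodenum/jejunum on the right, bars are SE) for the 28 tested tuft cell genes (y axis, grouped by role), in BALB/cJ (red, n = 6) and C57BL/6J (blue, n = 7). Gnat3 and Dclk1 lie to the right in both panels and both strains (1.13 or more), Plcb2 and Plcg2 to the left (-0.20 or less), and the strains part for Sh2d6 against the ileum (1.92 and 0.80).

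Whether the strain difference itself differed between tissues was tested by the interaction in the same fit. For colon against ileum 1 of 28 members was called, while 4.08% of all genes were, and for colon against duodenum/jejunum 1 of 28, beside 5.59%. For ileum against duodenum/jejunum 5 of 28 were called, beside 3.92%. Sh2d6 had a strain difference that was larger in the ileum than in the colon by 1.12 ± 0.25 SE (limma adjusted p = 0.0044, and 0.0083 without C57BL/6J mouse 2). It was also larger there than in the duodenum/jejunum (-0.93 ± 0.25 SE, limma adjusted p = 0.035), a call that ended without C57BL/6J mouse 2 (-0.73 ± 0.22 SE, limma adjusted p = 0.054). Plcg2 was lower in BALB/cJ in the duodenum/jejunum but not in the colon, and the difference between these was 0.73 ± 0.13 SE (limma adjusted p = 0.00012). Between ileum and duodenum/jejunum it was 0.55 ± 0.13 SE for Plcg2, 0.61 ± 0.15 SE for Kctd12, 0.64 ± 0.18 SE for Vav1 and 0.76 ± 0.22 SE for Ptgs1 (limma adjusted p = 0.017, 0.021, 0.039 and 0.047). Of these 4, Vav1 and Ptgs1 were not called without C57BL/6J mouse 2 (limma adjusted p = 0.06 and 0.07), and none of the 4 was called after median-of-ratios scaling (limma adjusted p from 0.081 to 0.18). For colon against duodenum/jejunum, Hpgds stood at 0.60 ± 0.19 SE (limma adjusted p = 0.054) and was called with the animal as a block (limma adjusted p = 0.036), and Vav1 at 0.51 ± 0.18 SE (limma adjusted p = 0.091) was called without C57BL/6J mouse 2 (limma adjusted p = 0.041). For the other 5 of the 6 genes lower in all 3 tissues, Avil, Trpm5, Dclk1, Rgs13 and Siglecf, no difference of the strain difference between tissues was called.

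Other genes of the same pathways were read from lists. For every list, the shares of all genes tested were 14.5% higher and 10.8% lower in the BALB/cJ colon. They were 17.2% and 3.17% for the ileum and 4.7% and 4.8% for the duodenum/jejunum. Of 25 further tuft cell genes, 5 were higher and 5 lower in the BALB/cJ colon (24 tested), 5 and 2 in the ileum (22 tested) and 1 and 5 in the duodenum/jejunum (23 tested). Camk2b, a calmodulin-dependent kinase gene, was lower in every tissue, at 2.84 ± 0.117 against 12.7 ± 1.28 TPM for the colon, 1.75 ± 0.197 against 11.7 ± 2.64 TPM for the ileum and 1.51 ± 0.495 against 12.98 ± 1.93 TPM for the duodenum/jejunum (4.48-fold, 6.72-fold and 8.62-fold lower, limma adjusted p = 5.6e-11, 8.9e-09 and 3.5e-09). Cbr3, a carbonyl reductase gene, was lower in the BALB/cJ colon (3.90 ± 0.626 against 26.7 ± 4.02 TPM, limma adjusted p = 2.8e-10) and higher in the ileum (1.98 ± 0.513 against 0.964 ± 0.273 TPM, limma adjusted p = 0.0065). Ly6g6f was lower in the BALB/cJ colon (0.459 ± 0.110 against 1.27 ± 0.226 TPM, limma adjusted p = 0.00012), where it entered the test through the C57BL/6J libraries alone. Pik3cg and Ly6g6d were lower in the BALB/cJ duodenum/jejunum (1.501-fold and 2.63-fold). Rac2 was higher in the colon and Tmem176b and Skap2 in the ileum, 3 genes also read in blood cells.

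Of 17 taste receptors and G protein partners, 7 were tested in each tissue, with 2 higher in the BALB/cJ colon (Itpr3 and Itpr1), 4 in the ileum (Gnai2, Trpm4, Itpr2 and Rgs2) and 0 in the duodenum/jejunum, and with 0 lower. Of 17 other eicosanoid genes, 2 were higher and 2 lower of 11 tested in the colon, 4 higher of 13 in the ileum and 1 higher of 15 in the duodenum/jejunum. Beside both lists, 14.5% of all genes tested were higher and 10.8% lower in the colon. The shares higher in the ileum and duodenum/jejunum were 17.2% and 4.7%. Lta4h, which makes leukotriene B4, was lower in the BALB/cJ colon (60.0 ± 6.17 against 97.6 ± 5.42 TPM, limma adjusted p = 1.1e-06). Hpgd, which breaks down prostaglandins, was higher in the BALB/cJ ileum (268 ± 91.5 against 110.3 ± 34.8 TPM, limma adjusted p = 0.0042) and duodenum/jejunum (358 ± 99.1 against 199 ± 58.6 TPM, limma adjusted p = 0.021). In the type 2 immune circuit, 19 genes, 0 of 11 were called in the colon. Il4ra, a chain of the interleukin 4 and 13 receptors, was lower in the BALB/cJ ileum (36.6 ± 4.29 against 47.0 ± 3.20 TPM, limma adjusted p = 0.0072) and duodenum/jejunum (25.6 ± 5.01 against 35.8 ± 3.20 TPM, limma adjusted p = 0.013). Areg, an epidermal growth factor receptor ligand, was higher in the BALB/cJ duodenum/jejunum (11.6 ± 2.85 against 6.08 ± 1.57 TPM, limma adjusted p = 0.0057). The cytokines Il13, Il4 and Il5 had group means of 0.442 TPM or less in all 6 groups.

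Within groups of the same strain and tissue, the 6 genes lower in all 3 tissues varied together only in part. Over the 39 libraries, after subtracting each group's mean, the median Pearson r of their 15 pairs was 0.34, from -0.04 to 0.65, the highest for Trpm5 with Sh2d6. The same libraries, scaling and tissue composition enter every pair, and no test is given. They include C57BL/6J mouse 2, whose library labelled ileum was the highest of its group for Trpm5, Sh2d6 and Siglecf. No values of the pairs are given without that mouse. Against the mean of the 7 tested genes that few other gut cells express, the 8 non-member genes most alike over 39 libraries, again after subtracting group means, were Cdk11b, Gm6415, Wfs1, Gnal, Ehbp1, Isoc2a, Fam13a and Wasf2 (r of 0.75 to 0.70, and of 0.72 to 0.63 without C57BL/6J mouse 2), among 15786 genes with a mean of at least 1 TPM. Members outside that mean ran from r = -0.11 (Ptgs1) and 0.03 (Kctd12) to 0.58 (Strip2, rank 273).

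On GRCm38, as annotated by GENCODE M21, the genes lower in all 3 tissues lie on 5 chromosomes. Avil lies on chromosome 10 from 127000709 to 127020994, Dclk1 on chromosome 3 from 55242364 to 55539068, Sh2d6 on chromosome 6 from 72513641 to 72521707 and Rgs13 on chromosome 1 from 144138654 to 144177372. Trpm5 (143069153 to 143094642) and Siglecf (43351341 to 43359531) both lie on chromosome 7, as do Ffar3 (30854330 to 30856178) and the neighbouring Hmx3 (131542867 to 131544925) and Hmx2 (131548773 to 131558014). Values are sums over whole genes, and whether BALB/cJ sequence variants against the C57BL/6J-based reference change the level read for single genes was not tested.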

How the data were processed

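RNA of the colon, ileum and duodenum/jejunum of 13 mice was extracted with a PureLink kit and sequenced from ribosome-depleted total RNA libraries, per the labels' protocols. Per the submitters' processing notes the tools include kallisto 0.44.0 with genome build GRCm38, while the annotation used for naming genes is not given there. The deposited values are log2(TPM + 1), 1 table per tissue, and TPM was recovered from them. Named entries summed to 978462 to 994059 TPM per library. TPM keeps no depth, so counting intervals are left out and the variation among mice sets the precision. No sample was dropped or imputed, and 26 entries whose names had turned into dates were not used as genes.

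Each tissue was fitted with limma 3.58.1 (R 4.3.3) with a variance trend on log2(TPM + 1), pseudocount 1, over genes with at least 1 TPM in 6 libraries, and 1 fit of all 39 libraries gave the tissue contrasts and interactions. The strain fits were tested on simulated data. Libraries of the same strain and number come from the same animal: 27 of 39 such pairs deviated together with a correlation over 0.1 (median 0.15), and the animal was a block in an alternative fit. The alternatives were the pseudocount, level filters, median-of-ratios scaling, covariate scores and each library left out. All 33 members are named, with up to 4 called genes per pathway list and tissue by smallest adjusted p, and the 8 genes most like the tuft cell mean. The members and lists were chosen with earlier results of these data known. One gene of the further tuft cell list that this rule names is not reported here.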

Additional observations from a re-analysis of the deposited data

Results flagged for a closer look

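Single libraries stood apart from the rest of their group for 13 of 139 member groups checked by Dixon's criterion, where chance alone gives about 1 in 20. Of these, 5 were libraries of C57BL/6J mouse 2 from the ileum and duodenum/jejunum. Its library labelled ileum goes against that label by Fabp6 and Tmprss15, and its library labelled duodenum/jejunum by Fabp6 but not by Tmprss15. In its ileum library Trpm5 was at 14.5 TPM (others 5.33 to 7.55 TPM), Ltc4s at 16.4 TPM (others 2.06 to 4.88 TPM), Plcg2 at 14.4 TPM (others at least 17.9 TPM) and Vav1 at 5.94 TPM (others 9.17 to 11.7 TPM). In its duodenum/jejunum library Ltc4s was at 4.32 TPM (others 10.1 to 15.9 TPM).

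The ileum library of BALB/cJ mouse 2, which had the highest summed B cell genes of the ileum, was highest for Ptgs1 at 47.8 TPM (others 25.9 to 30.96 TPM), Plcb2 at 12.97 TPM (others 4.49 to 6.05 TPM), Plcg2 at 23.9 TPM (others 15.6 to 17.5 TPM) and Vav1 at 20.1 TPM (others 9.87 to 11.1 TPM). The part of the B cells in these values was not tested. Avil was lowest in BALB/cJ colon mouse 3 at 3.35 TPM (others 4.42 to 4.97 TPM), the library with the highest summed pancreatic genes of the colon. Trpm5 was lowest in C57BL/6J colon mouse 6 at 7.18 TPM (others 8.52 to 9.07 TPM), Hpgds highest in C57BL/6J ileum mouse 3 at 7.76 TPM (others 4.44 to 5.42 TPM) and Matk lowest in BALB/cJ duodenum/jejunum mouse 3 at 2.36 TPM (others 3.50 to 4.36 TPM).

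The strain difference on the log2 scale differed between tissues by the limma interaction for Sh2d6 (1.12 for colon minus ileum and -0.93 for ileum minus duodenum/jejunum) and for Plcg2 (0.73 for colon minus duodenum/jejunum and 0.55 for ileum minus duodenum/jejunum). It also differed between ileum and duodenum/jejunum for Ptgs1 (0.76), Vav1 (0.64) and Kctd12 (0.61).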

How the results depend on the processing

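Of 26 called strain differences of members, 24 were called again with median-of-ratios scaling, 26 with a pseudocount of 0.1 and 25 without the level filter, and none changed sign in these fits. Of the named genes of the pathway lists, 12 of 13 (ileum, with Ptgs2 lost) and 7 of 7 (duodenum/jejunum) were called again without C57BL/6J mouse 2. Leaving out that mouse and the level filter together, chosen after seeing the data, gave 9 and 12 called members (3496 of 27336 and 1489 of 26545 genes). Leaving out each library in turn gave 10 to 13 called members in the colon, 5 to 9 in the ileum and 8 to 10 in the duodenum/jejunum. Of all genes, 3418 to 4238, 2120 to 4056 and 1188 to 1417 were called in these fits. A filter of 5 TPM left 7 called members in the colon and 2 in the ileum (3156 of 11884 and 2570 of 11481 genes), since fewer genes were tested. The epithelium score left 5 and the B cell score 1 in the colon (1124 and 300 of all genes, against 3986). In the ileum the epithelium score gave 9 and the B cell score 4 (3539 and 1772 of all genes, against 3169). Each score left 8 in the duodenum/jejunum (1214 and 1428 of all genes). The cause of these changes was not tested. Leaving out the duodenum/jejunum libraries high in pancreatic genes and C57BL/6J mouse 2, chosen after seeing the data, left 1 (346 of all genes, against 1454), with fewer samples. Median-of-ratios scaling left 1792 of all genes in the ileum.

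For colon against duodenum/jejunum, median-of-ratios scaling left Avil with almost no difference (-0.01) and reversed the sign of Matk (-0.25) and Ptpn6 (-0.21). Within C57BL/6J, 4 members were called for ileum against duodenum/jejunum (1940 of all genes, against 7186). Members with a strain difference that differed between colon and duodenum/jejunum numbered 3 with median-of-ratios scaling, 2 with the animal as a replicate block and 2 without C57BL/6J mouse 2. Of all genes, 1046, 1082 and 1277 were called in these fits, against 958. Between ileum and duodenum/jejunum such members numbered 2 without the level filter (391 of all genes), 1 with median-of-ratios scaling (115 of all genes, against 672) and 2 without C57BL/6J mouse 2 (753 of all genes). The cause was not tested. The animal block gave 23, 18 and 13 called members in the tissue contrasts, against 23, 17 and 11. Of all genes it gave 11529, 12725 and 7621, against 11240, 12487 and 7186. Mice of the same number in both strains are different animals, and 3 of 18 such pairs had a correlation over 0.1. With that number as a replicate block 9, 6 and 7 members were called in the colon, ileum and duodenum/jejunum (2924, 929 and 1140 of all genes). The depth of the libraries is unknown, which leaves the precision of members under 1 TPM to the spread between mice.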
